A study of Homo sapiens with 4 samples.

Results

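The cytosolic ribosomal protein genes encode the proteins that, together with the ribosomal RNAs, form the small (40S) and large (60S) subunits of the ribosome that translates nuclear mRNAs. They were taken from the table of counts by symbol, as RPL and RPS genes with a number, with or without the endings A, L, X or L1, and as RPLP0, RPLP1, RPLP2, RPSA and RPL36AL. Pseudogenes and the RPS6K kinases were left out. The rule found 85 genes among 39634 with values, and no symbol occurred in more than 1 row. By symbol alone, 32 (RPS) were assigned to the small and 53 (RPL) to the large subunit, with RPL7L1 and RPL3L among the latter.

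The study measured polyadenylated RNA of BEAS-2B, an established line of human bronchial epithelial cells. The libraries labelled Fer knockdown, 2 in number, came from cells with a short hairpin RNA against Fer, a cytoplasmic tyrosine kinase. The control libraries, also 2, came from cells with a control hairpin. Cells of both groups were grown in N2B27, a defined medium, and the labels give neither the hairpin sequences nor whether the cells were a pool or a clone.

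Ribosomal proteins are made in nearly equal numbers, because each ribosome holds a single copy of almost every member, and cells spend a large part of their transcription and translation on them. Their mRNAs typically begin with a C followed by an unbroken run of pyrimidines, the 5′ terminal oligopyrimidine (TOP) tract, through which mTOR signalling and the RNA-binding protein LARP1 control their translation and stability. In the cell the members are thus usually regulated as a group, while a few have near copies (paralogs) elsewhere in the genome that are expressed in particular tissues.

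Start regions of the members that rose are printed here because they show whether an annotated start of each gene carries the tract. Each line has 15 bases before and 15 after a transcription start in the RefSeq annotation of GRCh38.p14, read 5′ to 3′ on the strand of the gene, and capitals mark a tract that begins at the annotated first base, as a C followed by at least 4 bases each C or T. Pyrimidines elsewhere in a window are left in lower case.
RPS12, chr6:132814554-132814583, plus strand: gcgtgcggatgaggcCTCTTTCCCTgccgc
RPS21, chr20:62387088-62387117, plus strand: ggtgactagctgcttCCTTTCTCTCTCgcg
RPLP1, chr15:69452803-69452832, plus strand: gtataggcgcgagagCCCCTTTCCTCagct
RPL31, chr2:101002274-101002303, plus strand: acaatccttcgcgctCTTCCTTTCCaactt
RPL34, chr4:108620561-108620590, plus strand: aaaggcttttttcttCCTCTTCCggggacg
RPL39, chrX:119791616-119791645, minus strand: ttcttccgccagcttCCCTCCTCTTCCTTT
RPS27A, chr2:55232673-55232702, plus strand: tgcgcggcgttcttcCTTTTCgatccgcca
RPS13, chr11:17077653-17077682, minus strand: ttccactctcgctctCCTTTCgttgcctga
RPS29, chr14:49598696-49598725, minus strand: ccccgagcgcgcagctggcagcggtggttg

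A pair of members that did not rise is shown for comparison, RPS26 with the lowest fold change and RPL41 with the fold change nearest 0.
RPS26, chr12:56041903-56041932, plus strand: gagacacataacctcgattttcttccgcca
RPL41, chr12:56116618-56116647, plus strand: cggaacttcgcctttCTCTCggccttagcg

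A tract began at the annotated first base in 8 of these 9 rising members and in RPL41, and none began within 5 bases of the start in RPS29 or RPS26. In the RPS26 window a run of C and T that would qualify begins just beyond that limit, so its lack of a tract depends on the limit and on the annotated start. RPL34 and RPS27A have further RefSeq starts, and the start with the tract is the one printed. Of the 68 members with an entry in the RefSeq promoter table, 47 (69.1%) had a tract at a start, against 5.1% of all 27305 genes in it. Within 5 bases of a start, the shares were 80.9% of members and 25.2% of all genes. The motif was sought on the strand of the gene alone, and a match describes letters near the start, not a use of that start in these cells.

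Library totals ran from 21422976 to 25169713 counts, and 15336 genes had enough counts to be tested. The target itself was not lower by this measure: FER (ENSG00000151422, chromosome 5) had 17.8 and 20.1 CPM (counts scaled to library size, per 1e+06) in the libraries labelled Fer knockdown, against 16.3 and 21.2 CPM in the controls. Its log2 fold change was 0.02 ± 0.17 (SE) and the adjusted p was 0.976 (quasi-likelihood test of edgeR), so the mRNA gives no check of the labels, and "the libraries labelled Fer knockdown" is used throughout. Among epithelial keratins, KRT8 was abundant, at 1826 and 1848 CPM in libraries labelled Fer knockdown and at 2094 and 1603 CPM in the controls. KRT18 stood at 802 and 745 CPM in libraries labelled Fer knockdown and at 965 and 792 CPM in the controls. KRT7 stood at 211 and 212 CPM against 309 and 248 CPM in the controls (log2 fold change -0.40, adjusted p = 0.169). KRT19 stood at no more than 7.71 CPM in any library. CDH1 and EPCAM, markers of epithelial junctions and surfaces, stood at or below 10.5 CPM in every library. Their log2 fold changes were 0.45 (adjusted p = 0.239) and 0.46 (adjusted p = 0.426). Of the 6 epithelial markers tested, 3 had a positive and 3 a negative fold change, and 0 were called. KRT5 and TP63 of basal airway cells had at most 12 counts, the leukocyte marker PTPRC had at most 6, and CD3E and HBB had 0. Of 4 mesenchymal markers 1 fell, THY1 (log2 fold change -0.77, adjusted p = 0.0302), and the 4 summed to 3265 and 3126 CPM in libraries labelled Fer knockdown and to 4014 and 4728 CPM in the controls, whose part in the results that follow was not tested. The labels do not say whether replicates were separate cultures, so p-values measure the spread between these samples only, which may be technical.

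Ribosomal protein mRNAs made up a larger share of the libraries labelled Fer knockdown. The members together took 5.58% and 5.83% of all counts in those libraries, against 4.67% and 3.52% in the controls, and the group means were 5.70% ± 0.18 and 4.09% ± 0.82 (SD, n = 2 each). Both libraries labelled Fer knockdown lay above both controls. The difference of 1.61 percentage points had p = 0.333 in a two-sided exact permutation test, the smallest p that 2 libraries against 2 can give. Counts of mitochondrial chromosome genes moved the other way, with 9.62% and 9.37% of all counts in libraries labelled Fer knockdown and 16.9% and 19.4% in the controls. Outside the mitochondrial chromosome the members' share was 6.17% and 6.43% in the libraries labelled Fer knockdown and 5.62% and 4.36% in the controls. In RNA from whole cultures, fewer cells of a type and less RNA per cell cannot be told apart.

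Gene by gene, 9 members rose in the libraries labelled Fer knockdown and 0 fell at an adjusted p under 0.05, out of 82 that could be tested. Over all 15336 genes, 0.28% were called higher and 0.365% lower by that rule, 0.646% in all. RPS26 alone fell at an unadjusted p under 0.05, where 38 members were higher, against 8.95% of all genes higher and 8.76% lower. DESeq2 called 20 members higher and RPS26 lower, beside 1.62% of all genes higher and 2.16% lower. The limma-voom test called 13 members higher and 0 lower, beside 0.489% of all genes higher and 0.672% lower. The fold change was positive for 69 members (84.1%) and for 51.9% of all genes, and its median was 0.30 on the log2 scale over the members and 0.01 over all genes. With the mitochondrial chromosome left out, 8 of the 9 were called, beside 0.268% of all genes higher and 0.229% lower. The median over the members was then 0.29. Both libraries labelled Fer knockdown lay above both controls for 48 members (58.5%), where 25.8% of all genes did so. They lay below both for 3 members, RPS26 and RPL28 among them, against 23.4% of all genes, and the groups overlapped for the other 31.

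**Figure D1:**
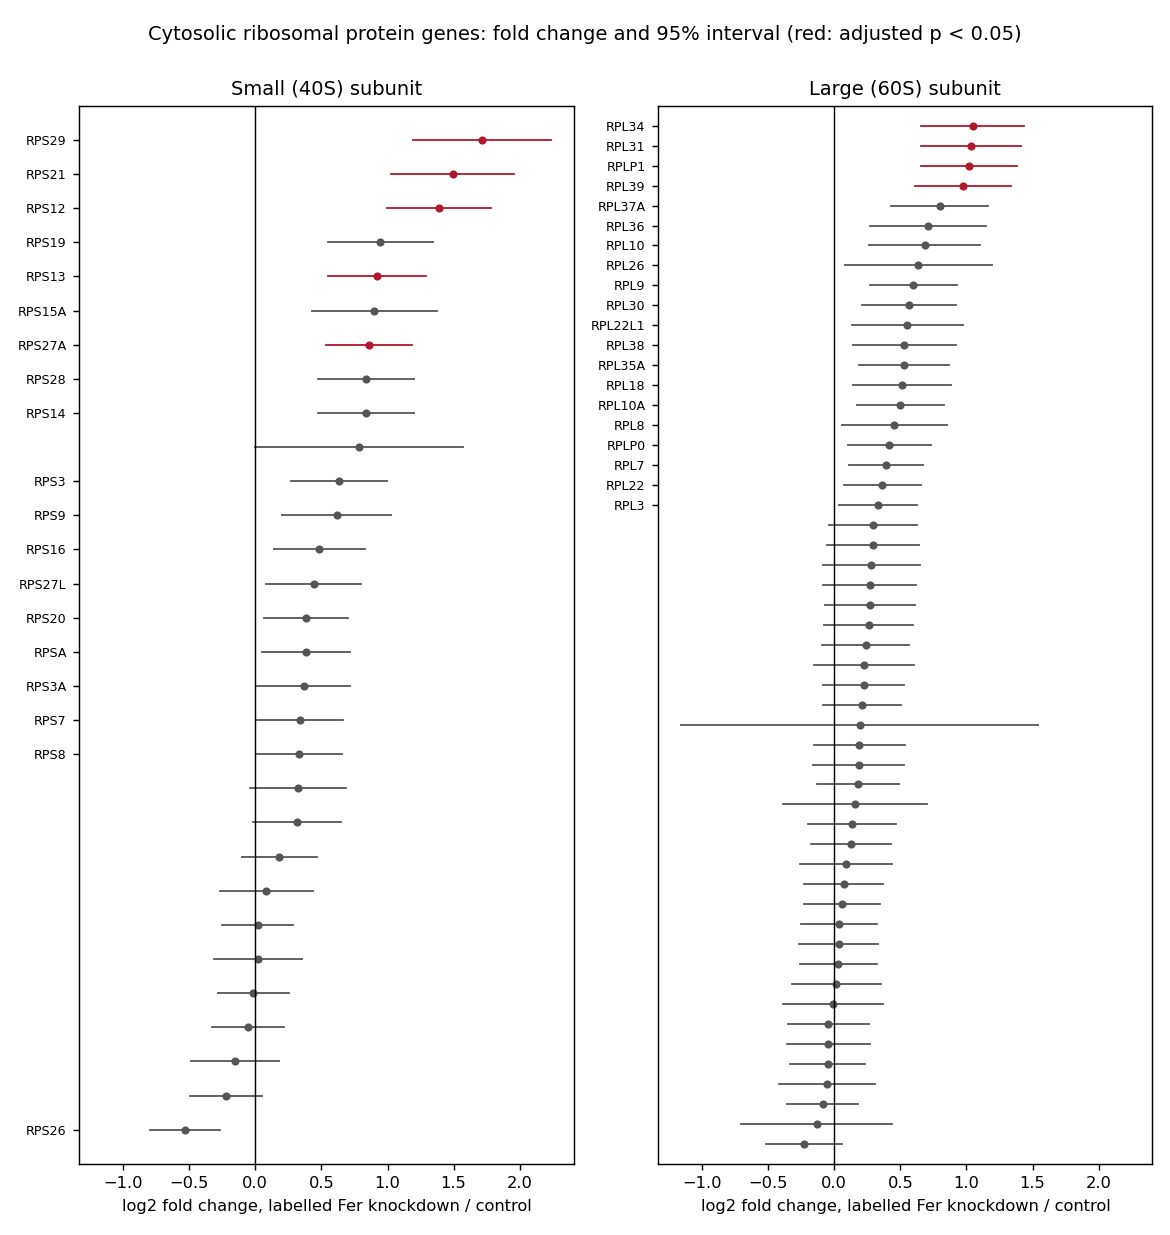
Log2 fold change of each tested member, the libraries labelled Fer knockdown over control, with 95% intervals from edgeR, for the small and the large subunit; red marks the 9 members past an adjusted p of 0.05, and members with an unadjusted p under 0.05 are named. Values run from -0.53 for RPS26 to 1.72 for RPS29, and 69 of the 82 points lie right of 0.

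The size of this shift differed with the control library. Control replicate 2 was the lowest of the 4 libraries for 76 of the 82 members (92.7%), against 32% of all genes, and 80 members were lower in it than in control replicate 1. Between replicates, the median member differed by 0.11 on the log2 scale in the libraries labelled Fer knockdown and by 0.44 in the controls. Without control replicate 2 the median fold change was 0.07, with 54 members positive, and without control replicate 1 it was 0.55.

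Leaving out a library also moved the number of calls. Without control replicate 2, 32 members were called higher and 14 lower, with RPL4, RPL12, RPL41, RPS2 and RPS24 among those called lower, while 9.49% of all genes were called higher and 11.1% lower. Without control replicate 1, 66 members were called higher and RPS26 lower, while 14.6% of all genes were called higher and 14.9% lower. Calls thus became more frequent over all genes as well as among the members. There were 14 called without the library labelled Fer knockdown replicate 1 and 4 without the library labelled Fer knockdown replicate 2, all higher, beside 0.488% and 0.195% of all genes called higher in those fits. In each of these fits a group held a lone library that was taken to vary as the other group did, and all 9 members above stayed called when either control or the library labelled Fer knockdown replicate 1 was left out.

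**Figure D2:**
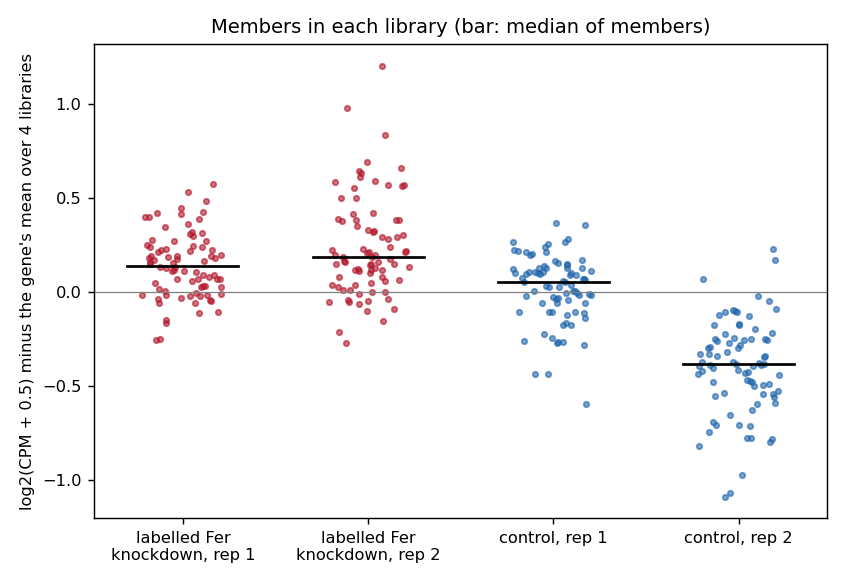
Deviation of each tested member from its own mean over the 4 libraries, as log2 of CPM + 0.5, by library, with the libraries labelled Fer knockdown left of the controls; points are members and bars are medians. Medians were 0.14 and 0.18 in the libraries labelled Fer knockdown, against 0.05 in control replicate 1 and -0.39 in control replicate 2.

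The small subunit held 5 of the members that rose. RPS29, a short zinc-binding protein of the 40S head, had the largest fold change of all members. It stood at 192 and 317 CPM in libraries labelled Fer knockdown, against 90.8 and 64.3 CPM in the controls. Its 2 groups did not overlap, and the library labelled Fer knockdown replicate 2 was well above replicate 1. The log2 fold change was 1.72 ± 0.23 (SE), a 3.29-fold difference, with an adjusted p of 0.0182. Exons of other genes cover 8.85% of its exonic bases, where reads cannot be assigned without strand.

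RPS21, a protein of the 40S body, had 490 and 668 CPM in libraries labelled Fer knockdown, against 250 and 161 CPM in the controls. The groups were far apart, and control replicate 2 was again the lowest library. The log2 fold change was 1.49 ± 0.21 with an adjusted p of 0.0193. Per kilobase of its principal mRNA, RPS21 ranked number 4 of the 82 members in the libraries labelled Fer knockdown and number 39 in the controls.

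RPS12, which sits at the beak of the 40S head, had 516 and 618 CPM in libraries labelled Fer knockdown and 256 and 177 CPM in the controls. Both libraries labelled Fer knockdown lay above both controls. It had the smallest adjusted p of the members, 0.0157, with a log2 fold change of 1.39 ± 0.18. RPS12, RPS21, RPS29 and RPLP1 stayed past the threshold in all 17 alternative analyses. Among these, summing the rows of a repeated symbol could not change the result, because no symbol was repeated.

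RPS27A is made as a fusion of ubiquitin and a 40S protein that is cleaved after translation. Its level was 451 and 545 CPM in libraries labelled Fer knockdown and 304 and 244 CPM in the controls. The groups were apart, and the log2 fold change was 0.86 ± 0.15 with an adjusted p of 0.0354. RPS13, a 40S body protein that binds early in assembly, had 284 and 335 CPM in libraries labelled Fer knockdown and 192 and 136 CPM in the controls. With a log2 fold change of 0.92 ± 0.17 and an adjusted p of 0.0461 it lay closest to the threshold of those that passed. Exons of other genes cover 5.65% of the exonic bases of RPS27A and 6.77% of those of RPS13. Without the library labelled Fer knockdown replicate 2 neither passed, with adjusted p-values of 0.371 for RPS27A and 0.258 for RPS13, and RPS13 also missed the threshold once the mitochondrial chromosome was left out.

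The large subunit held the other 4. RPLP1, an acidic protein of the stalk that recruits elongation factors, was the most abundant of the members that rose, in CPM. It had 1158 and 1279 CPM in libraries labelled Fer knockdown, against 709 and 495 CPM in the controls. Both libraries labelled Fer knockdown were above both controls, and the log2 fold change was 1.02 ± 0.16 with an adjusted p of 0.0302. Its stalk partners did not pass the test. RPLP2, with which RPLP1 pairs, had a log2 fold change of 0.30 ± 0.15 (adjusted p = 0.341). RPLP0, the stalk base that anchors both, had 0.42 ± 0.14 (adjusted p = 0.169). Each had groups that did not overlap, and 25.8% of all genes also lay above both controls.

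RPL31, RPL34 and RPL39 are small proteins of the 60S subunit, and RPL31 and RPL39 lie near the exit of the tunnel through which the new protein leaves. RPL31 had 639 and 750 CPM in libraries labelled Fer knockdown, against 399 and 279 CPM in the controls, a log2 fold change of 1.04 ± 0.17 (adjusted p = 0.0326). RPL34 was lower throughout, at 160 and 192 CPM in libraries labelled Fer knockdown and 99.8 and 70.7 CPM in the controls, with a log2 fold change of 1.05 ± 0.17 (adjusted p = 0.0347). RPL39 had 265 and 292 CPM in libraries labelled Fer knockdown, against 166 and 117 CPM in the controls, a log2 fold change of 0.98 ± 0.16 (adjusted p = 0.0354). In all 3 genes the groups were apart, and the lowest value was that of control replicate 2. Each missed the threshold without the library labelled Fer knockdown replicate 2, with adjusted p-values of 0.0668 for RPL31, 0.124 for RPL34 and 0.109 for RPL39. Exons of other genes cover 9.15% of the exonic bases of RPL31 and 4.86% of those of RPL39.

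**Figure D3:**
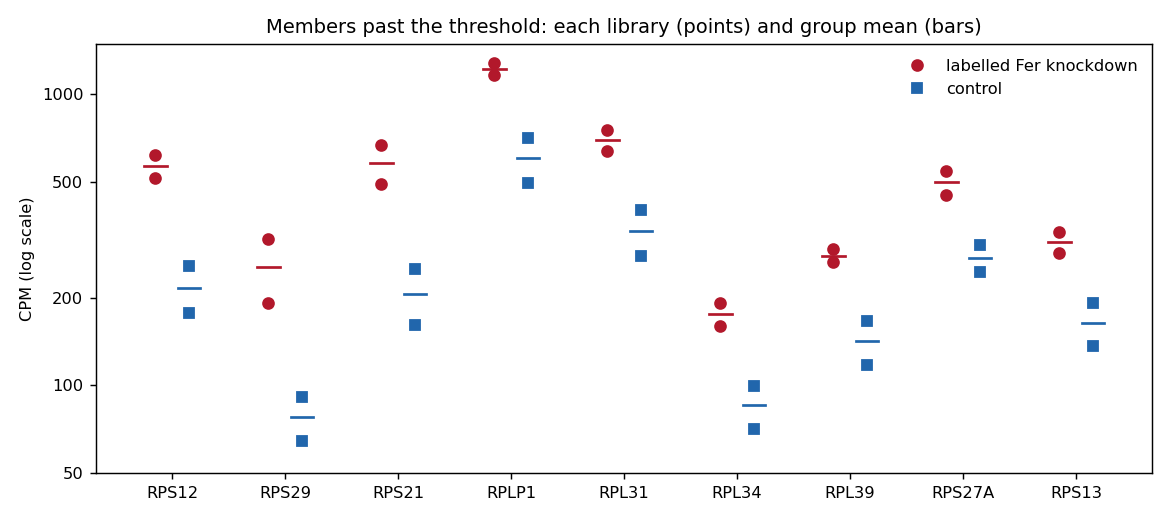
CPM in each library for the 9 members that rose, on a log axis, with bars at the group means and the libraries labelled Fer knockdown left of the controls. For every gene shown the lowest point is control replicate 2 and both points of the libraries labelled Fer knockdown lie above both controls, with RPS29 the lowest and RPLP1 the highest in CPM in control replicate 2 (64.3 and 495 CPM).

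Several members lay just beyond the threshold. RPS19, a protein of the 40S head known for its mutation in Diamond-Blackfan anaemia, had 1414 and 1552 CPM in libraries labelled Fer knockdown, against 934 and 607 CPM in the controls. Its log2 fold change was 0.94 ± 0.18 with an adjusted p of 0.051. RPS14, RPS28 and RPL37A followed, with log2 fold changes of 0.84, 0.84 and 0.80 and adjusted p-values of 0.0549, 0.0549 and 0.0561. None of these 4 members overlapped between the groups, but they were picked by their small p, and 25.8% of all genes also lay above both controls. For RPS28, 21.4% of the exonic bases lie in exons of other genes and 23.6% of the summed counts lie in its pseudogenes, so its value is uncertain.

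By place in the ribosome, proteins of the 40S head had the highest median. Of the 12 head proteins tested, 3 rose, 11 lay above both controls, and the median log2 fold change was 0.71. Over all genes, 0.28% were called higher and 25.8% lay above both controls. The head list includes RPS10 and RPS28, with 87.5% and 23.6% of their summed counts in pseudogenes. With pseudogene counts added to their members, the head median was 0.49. The 18 tested proteins of the 40S body had a median of 0.34, with 2 that rose, and the 52 tested proteins of the large subunit had a median of 0.25, with 4 that rose. The 3 stalk proteins had a median of 0.42. RPL5 and RPL11, which with the 5S RNA form the particle that restrains MDM2 when assembly is disturbed, had log2 fold changes of 0.21 (adjusted p = 0.443) and 0.19 (adjusted p = 0.574). Without control replicate 2 the head median was 0.45 and the large subunit median 0.03, and no test was made of the differences between these groups of genes.

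**Figure D4:**
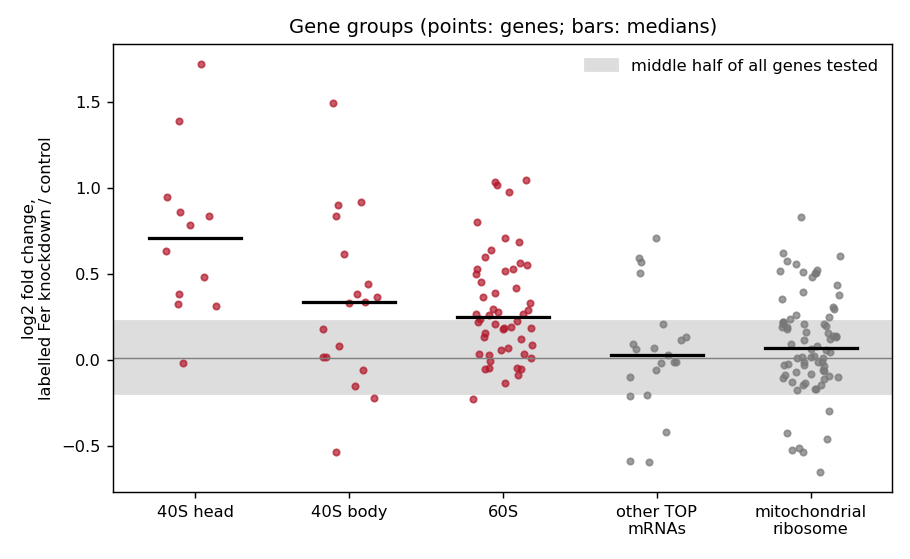
Log2 fold change of each tested gene, the libraries labelled Fer knockdown over control, by group of genes; points are genes and bars are medians. Medians run from 0.71 in the 40S head through 0.34 in the 40S body and 0.25 in the large subunit to 0.07 in the mitochondrial ribosomal proteins and 0.03 in other TOP mRNAs, and the groups of genes overlap; the grey band holds the genes between the quartiles of all genes tested, -0.19 and 0.23.

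RPS26 was the member with the lowest fold change. It is a 40S protein that touches the mRNA near the exit channel, and it had 250 and 247 CPM in libraries labelled Fer knockdown, against 383 and 336 CPM in the controls. Here both controls were higher, and control replicate 2 was not the lowest library. The log2 fold change was -0.53 ± 0.12 with an adjusted p of 0.0727, so it did not pass, while DESeq2 put it past the threshold with an adjusted p of 0.00902. RPL28, a protein of the large subunit, came next, with a log2 fold change of -0.23 (adjusted p = 0.397).

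The 3 members nearest 0 were RPL41, RPS25 and RPL12. RPL41, the shortest protein of the ribosome, had 653 and 570 CPM in libraries labelled Fer knockdown and 730 and 500.2 CPM in the controls, so that the controls enclosed the other group. RPS25, used by some viral internal ribosome entry sites, had a log2 fold change of -0.01 ± 0.12, and RPL12, near the base of the stalk, had 0.01 ± 0.15. Their 95% intervals cover changes in either direction, and the sign for each changed with the scaling, the filter, the length correction or the library left out.

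Levels were compared between members as CPM per kilobase of the principal mRNA of GENCODE release 29. Among the highest mean levels were those of RPS19, at 2818 in the libraries labelled Fer knockdown and 1465 in the controls, and RPL8, a protein of the peptidyl transferase region, at 2296 in the libraries labelled Fer knockdown and 1675 in the controls. RPS2, at the mRNA entry of the 40S subunit, stood at 2037 in the libraries labelled Fer knockdown and 2012 in the controls. RPS27, a zinc-binding 40S protein, stood at 1664 in the libraries labelled Fer knockdown and 1572 in the controls. RPS19 thus ranked highest in the libraries labelled Fer knockdown and RPS2 in the controls. Over the 82 members the order of levels was alike in both groups, with a Spearman rho of 0.932 across genes, which share their lengths and their libraries. Members with a long annotated mRNA, such as RPL37 and RPL27A, are understated on this scale.

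Paralogs and their partners were set side by side, with the identity of their coding sequences as the measure of how far reads could be shared. RPL39L differed from RPL39 at few positions (94.8% identical, longest shared run 44 bases). Its level was 36.8 and 42.0 CPM in libraries labelled Fer knockdown, against 38.8 and 28.6 CPM in the controls, a log2 fold change of 0.23 (adjusted p = 0.537) beside 0.98 for RPL39. RPL36AL (89.9% identical to RPL36A) had a log2 fold change of 0.09, and RPL36A had -0.13 at no more than 4.38 CPM in any library. RPL26L1 (84.1%) had 0.03 beside 0.64 for RPL26. That value of RPL26 rested on 1 library, since its CPM were 20.2 and 35.6 in libraries labelled Fer knockdown and 20.3 and 15.7 in the controls, and the log2 fold change was 0.17 without the library labelled Fer knockdown replicate 2 and 0.98 without the library labelled Fer knockdown replicate 1. RPS27L (77.8%), a p53 target, had 0.44 beside 0.08 for RPS27. RPL22L1 (65.4%), which can take the place of RPL22, had 0.55 beside 0.36 for RPL22. RPL7L1 (54.0%), a factor of ribosome assembly, had 0.04 beside 0.39 for RPL7. RPL3L (75.2%), a form of striated muscle, had 0.19 ± 0.61 at no more than 1.09 CPM, beside 0.33 for RPL3. Without control replicate 2 the log2 fold changes were 0.23 for RPS27L, 0.29 for RPL22L1, 0.23 for RPL7 and 0.14 for RPL3. None of these genes other than RPL39 passed the test, and RPL10L, a testis form of RPL10, had 0 counts in every library.

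A few members had counts far under those of the rest. RPS18 had 1 and 2 counts in libraries labelled Fer knockdown and 0 and 1 in the controls, and with RPL10L it was among the 3 members not tested. RPS10 had 53 and 54 counts in libraries labelled Fer knockdown and 30 and 23 in the controls. Genes named as pseudogenes of a member held 99.15% of the summed counts of RPS18 and its pseudogenes and 87.5% of those of RPS10, and 40.8% of those of RPL26. For RPS10, RPL17 and RPL36A, exons of other genes cover 39.4%, 35.3% and 8.40% of the exonic bases. Reads of such members could be split with these other genes, so their levels and fold changes are uncertain, and the source of the low counts was not tested. Over all members, the pseudogenes held 0.180% and 0.177% of all counts in libraries labelled Fer knockdown and 0.164% and 0.130% in the controls. Adding them to their members gave 10 calls, all higher, beside 0.289% of all genes higher and 0.381% lower.

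Short genes tended to be higher in the libraries labelled Fer knockdown whether or not they were members. Among genes with a coding sequence of up to 300 bases, the median log2 fold change was 0.53 for the 11 members and 0.17 for 263 other genes. From 301 to 450 bases it was 0.32 for 29 members and 0.08 for the other genes, and from 601 to 900 bases it was 0.27 for 20 members and 0.04 for the other genes. All 9 members that rose had coding sequences of at most 600 bases, from 51 codons in RPL39 to 156 in RPS27A, as did 58 of the 82 members tested (70.7%). Across genes, the Spearman rho of fold change with coding length was -0.21 over 82 members and -0.10 over 13353 coding genes, values that share the same 4 libraries. A trend on coding length was then taken out of each library, a step chosen after the data were seen. The median over the members was then 0.25. In that fit 15 members were called higher and RPS26 lower, beside 1.2% of all genes higher and 1.92% lower. All 9 stayed called.

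**Figure D5:**
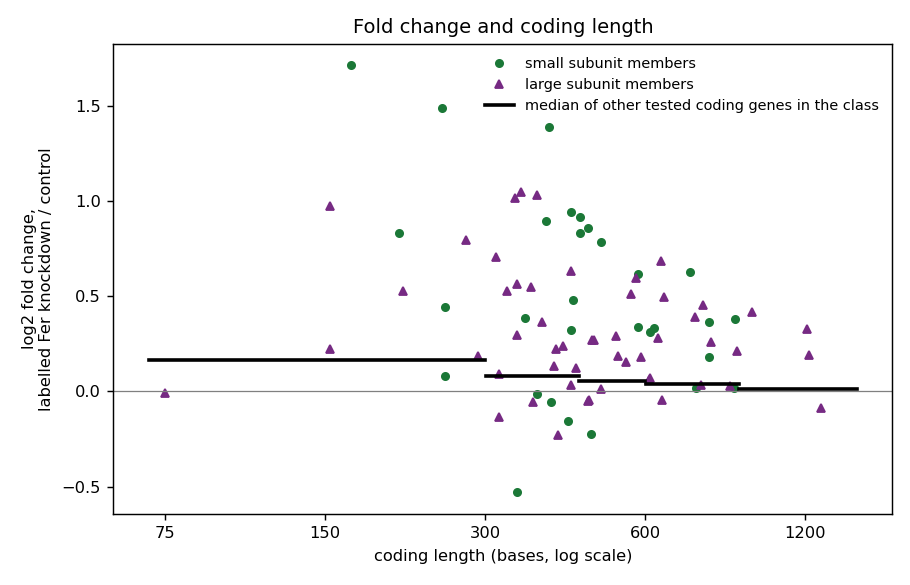
Log2 fold change against coding length (bases, log axis) for the tested members, with circles for the small and triangles for the large subunit and a black line for the median of all other tested genes in each length class. The line falls from 0.17 in the shortest class to 0.01 at 901 to 1500 bases, and the members' medians in those classes are 0.53 and 0.26.

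Within the members, a TOP tract at an annotated first base went with a somewhat higher median. The 46 tested members with a tract at a RefSeq start had a median log2 fold change of 0.40, from -0.23 to 1.49, and 8 of them rose. The 20 without a tract at a start had a median of 0.18, from -0.53 to 1.72, and RPS29 was the member among them that rose. Over all genes, 0.28% were called higher. Some of the 20, such as RPL10A and RPS7, had a tract within 5 bases of a start, so they are not a group without tracts. This contrast was not tested.

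Other mRNAs with a TOP tract were then listed: translation factors, PABPC1, NACA, VIM, GAS5 and their like, 22 genes of which 21 were tested. None passed the threshold in edgeR, and the median log2 fold change was 0.03. At an unadjusted p under 0.05, 4 were higher and 3 lower, where 8.95% of all genes were higher and 8.76% lower. NACA, a chaperone subunit that binds at the ribosome exit, had 309 and 306 CPM in libraries labelled Fer knockdown, against 227 and 187 CPM in the controls (log2 fold change 0.57, adjusted p = 0.0746). GAS5, a noncoding host of small nucleolar RNAs, had a log2 fold change of 0.60 (adjusted p = 0.0821). VIM, the intermediate filament vimentin, had -0.59 (adjusted p = 0.0549), and PABPC1, the poly(A)-binding protein, also had -0.59 (adjusted p = 0.0759). The list thus held genes on both sides of 0, although 13 of the 16 in the promoter table (81.2%) had a tract at a start.

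FAU and RACK1, which the symbol rule leaves out, did not pass the test. FAU, a fusion that yields the 40S protein eS30, had 246 and 225 CPM in libraries labelled Fer knockdown, against 177 and 111 CPM in the controls (log2 fold change 0.71, adjusted p = 0.11). RACK1, a scaffold bound to the 40S head, had a log2 fold change of 0.10 (adjusted p = 0.776).

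Known regulators of these mRNAs showed no call either. Of 17 genes for LARP1, the mTOR complex, its substrates and MYC, none passed in edgeR, and the median was -0.05. At an unadjusted p under 0.05, 1 was higher and 1 lower, where 8.95% of all genes were higher and 8.76% lower. AKT1S1, the mTOR complex subunit PRAS40, had 95.4 and 98.1 CPM in libraries labelled Fer knockdown and 150.4 and 144.8 CPM in the controls (log2 fold change -0.61, adjusted p = 0.0549). LARP4, which binds poly(A) tails, had 0.40 (adjusted p = 0.266), MLST8 of the mTOR complex -0.28 (adjusted p = 0.386) and MTOR, its kinase, 0.20 (adjusted p = 0.479).

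The mitochondrial ribosome, whose proteins are also encoded in the nucleus, was the closest set for comparison. Of 78 such genes 76 were tested, and none passed in edgeR. At an unadjusted p under 0.05, 12 were higher and 6 lower, where 8.95% of all genes were higher and 8.76% lower. Their median log2 fold change was 0.07, beside 0.30 for the cytosolic members. Above both controls lay 27 (35.5%) and below both 14, against 25.8% and 23.4% of all genes. The fold change was positive for 46 of the 76 (60.5%), against 51.9% of all genes. Those with the smallest p nevertheless lay below both controls. They were MRPS11 at -0.65 (adjusted p = 0.0639), MRPL37 at -0.51 (adjusted p = 0.0764), MRPL3 at -0.53 (adjusted p = 0.0934) and MRPL4 at -0.52 (adjusted p = 0.0967).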

How the data were processed

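The authors deposited a table of raw counts per gene with identifiers, symbols and a gene length, per the file headers. HISAT2, featureCounts, DESeq2 and the builds hg19 and mm10 are named, without versions or roles, per the submitters' processing notes. The strand setting and annotation were not stated in those notes. RNA was selected on oligo(dT) beads, per the labels' protocols. Of 39635 rows, 1 held no values. For 1 library labelled Fer knockdown the column has a shortened name and was matched by its number. Lengths, exon overlaps and chromosomes came from GENCODE release 29 (39581 identifiers matched), starts from RefSeq.

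The test was that of edgeR 4.0.16 under R 4.3.3 (filterByExpr, TMM factors of 1.06, 1.06, 0.940 and 0.949, quasi-likelihood test, 2 residual degrees of freedom, two-sided, Benjamini-Hochberg over 15336 genes, threshold 0.05). SEs were derived by dividing each fold change by the root of its F statistic, and CPM are on the TMM scale. Counting error was small beside replicate spread: the 95% Wilson interval of 3.52% was 3.51% to 3.52%. On simulated counts over 15072 genes the test recovered 24 of 67 genes at a 1.5-fold change, 62 of 67 at 2-fold and all 66 at 4-fold, and made 8 false calls.

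Named genes were FER, every member past the threshold, the next by p, the 3 lowest, the 3 nearest 0, the 5 of highest level, untested members, paralog pairs, stalk and 5S members, and up to 4 genes by p from each other list. RPS14, RPS28, RPL37A, RPS10, RPL17 and the markers named lie outside this rule and were chosen after their values were seen. Values of some genes that the rule names are not reported here. The members and lists were chosen with earlier results of these data known. Alternatives were DESeq2 1.42.0, limma 3.58.1 (voom), other scalings and filters, a replicate block, length trends, added pseudogenes, no mitochondrial chromosome, and each library left out.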

Additional observations from a re-analysis of the deposited data

How the results depend on the processing

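Over all genes, 99 were called, against 192 with upper-quartile factors, 443 with library totals alone, 580 with DESeq2, 178 with limma-voom, 993 with no filter, 699 and 478 with a table or coding length trend removed, and 56 to 4734 with a library left out. Of those calls 43.4% were higher, against 89.4% with library totals, which moved the median of all genes to 0.18 on the log2 scale. Members called numbered 9, against 22 with library totals, and, with RPS26 lower as the 1 exception to higher calls, 21 with DESeq2, 33 with no filter, 18 with the table length trend and 16 with the coding length trend. With a library left out they numbered 4 to 67, of which 0 to 14 were lower, and medians ran from 0.0727 to 0.55 over the members and from 0.0289 to 0.50 over the large subunit. Same-numbered libraries did not deviate together (correlation 0.04 over genes), and the numbers were not used as pairs in the main fit. This correlation cannot exclude a pairing. A replicate block gave 29 members, 1 of them lower, and 990 genes. All 9 members stayed called in all alternatives except RPS13 without the mitochondrial chromosome, and RPL31, RPL34, RPL39, RPS13 and RPS27A without the library labelled Fer knockdown replicate 2. The cause was not tested.

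Signs turned for some members near 0 (log2 fold changes). With library totals RPL41 was 0.16, RPS25 0.15 and RPL36A 0.0307, and RPL41 was 0.0145 with voom and 0.0144 with the block. RPL12 was -0.0016 with a filter of 5 CPM. With the table length trend removed, RPL12 was -0.0112, RPS2 -0.0082, RPS27 -0.0186, RPL26L1 -0.0688 and RPL36AL -0.0549. With the coding length trend, RPL12 was -0.0486, RPS27 -0.0669, RPL7L1 -2e-04, RPL26L1 -0.0526 and RPL36AL -0.0361. With a library left out, RPS25 ran from -0.13 to 0.0836, RPL7L1 from -0.0543 to 0.10, RPL41 from -0.28 to 0.29, RPL12 from -0.22 to 0.26, RPL3L from -0.44 to 1.13, RPL26L1 from -0.0768 to 0.12, RPL36AL from -0.0945 to 0.27, FER from -0.16 to 0.19, RPS2 from -0.23 to 0.28, RPS27 from -0.17 to 0.35, RPL36A from -0.32 to 0.0574 and RPL11 from -0.0381 to 0.42. Among the fold changes of single named genes, 524 kept direction and side of the threshold, 60 crossed into it and 6 out of it. The 524 include a fit with the rows of a repeated symbol summed, which could not differ because no symbol was repeated.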
